A study of Homo sapiens with 6 samples.

Results

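Human chromosome 7 carries 964 of the 19498 genes in the deposited table. Members were chosen by their position on GRCh38 and by their normalised value, which had to reach 10 in 3 or more of the 6 libraries; 834 genes did so and 130 did not. They form 5.01% of the 16658 genes tested. The members comprised 596 protein-coding genes, 136 long non-coding genes, 95 pseudogenes and 7 others, with 274 on the short arm and 560 on the long arm. Just inside the filter were TMEM140, whose 3 highest values went down to 10.04, and the unnamed ENSG00000271553 at 10.01. Just outside it were RN7SL81P at 9.87 and ENSG00000236529 at 9.84.

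The libraries came from K562, a human line from a chronic myeloid leukaemia in blast crisis, with erythroid features and the BCR-ABL1 fusion kinase, which both groups share. Poly(A)-selected, stranded RNA libraries were made from cells in serum-containing medium, 3 labelled WT and 3 labelled ACK KO, each described as a biological replicate. ACK is the tyrosine kinase encoded by TNK2 on chromosome 3. The labels do not say how the gene was disrupted, or whether the KO-labelled cells are 1 clone, and they do not state that the replicates are separate cultures. The p-values therefore measure the spread between these samples, and genotype and cell line history cannot be told apart.

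K562 is aneuploid, as cell lines of this kind usually are. In such cells, the RNA level of a gene tends to follow the number of copies of its chromosome, while single genes can also be switched on or silenced locally. Chromosome 7 holds the HOXA cluster of developmental transcription factors, the imprinted domains around PEG10, MEST and GRB10, the Williams syndrome region, and long-arm genes such as EZH2, KMT2C and CUX1 that are often lost or mutated in myeloid disease. DNA copies were not measured here, so more copies and more RNA from each copy cannot be told apart. In bulk RNA, fewer cells of a type and less RNA per cell cannot be told apart either.

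Promoters are shown for 7 genes of the local runs and single-gene departures described below, chosen after their values were seen. Each is the RefSeq window (build GRCh38.p14) from 250 bases before to 50 bases after the listed start, written 5′ to 3′ on the gene's own strand with CpG dinucleotides in capitals. CROT (chr7:87345414-87345713, plus strand), RUNDC3B (chr7:87628148-87628447, plus strand) and ABCB1 (chr7:87713246-87713545, minus strand) lie in a run of neighbours that was higher in the KO-labelled libraries. PDK4 (chr7:95596467-95596766, minus strand) and ZC3HAV1L (chr7:139035993-139036292, minus strand) were listed at 0 in every WT library. GNAI1 (chr7:80134581-80134880, plus strand) and CD36 (chr7:80601957-80602256, plus strand) lie in a run that was lower.
CROT: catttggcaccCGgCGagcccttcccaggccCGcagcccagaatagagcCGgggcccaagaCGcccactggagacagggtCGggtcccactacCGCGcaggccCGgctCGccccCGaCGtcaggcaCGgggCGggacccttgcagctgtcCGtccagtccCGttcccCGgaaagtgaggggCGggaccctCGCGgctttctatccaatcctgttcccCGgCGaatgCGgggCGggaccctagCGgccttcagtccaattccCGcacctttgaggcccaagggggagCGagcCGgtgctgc
RUNDC3B: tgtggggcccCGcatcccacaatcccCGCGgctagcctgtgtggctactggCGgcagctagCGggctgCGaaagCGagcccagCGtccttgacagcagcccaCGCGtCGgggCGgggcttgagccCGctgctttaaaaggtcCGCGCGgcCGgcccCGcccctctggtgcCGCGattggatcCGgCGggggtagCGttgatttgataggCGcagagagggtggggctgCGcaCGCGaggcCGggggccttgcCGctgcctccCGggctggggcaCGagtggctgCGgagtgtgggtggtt
ABCB1: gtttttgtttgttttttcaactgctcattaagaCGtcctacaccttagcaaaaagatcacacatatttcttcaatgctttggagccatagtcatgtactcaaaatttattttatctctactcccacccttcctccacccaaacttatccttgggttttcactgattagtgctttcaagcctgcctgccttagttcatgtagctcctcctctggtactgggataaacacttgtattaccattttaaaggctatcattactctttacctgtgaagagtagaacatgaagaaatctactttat
PDK4: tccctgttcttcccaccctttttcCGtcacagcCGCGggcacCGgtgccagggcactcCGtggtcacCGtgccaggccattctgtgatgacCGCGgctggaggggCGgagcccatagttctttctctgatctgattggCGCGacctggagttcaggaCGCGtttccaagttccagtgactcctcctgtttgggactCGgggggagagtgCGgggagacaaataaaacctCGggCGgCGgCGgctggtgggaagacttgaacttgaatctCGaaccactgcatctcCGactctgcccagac
ZC3HAV1L: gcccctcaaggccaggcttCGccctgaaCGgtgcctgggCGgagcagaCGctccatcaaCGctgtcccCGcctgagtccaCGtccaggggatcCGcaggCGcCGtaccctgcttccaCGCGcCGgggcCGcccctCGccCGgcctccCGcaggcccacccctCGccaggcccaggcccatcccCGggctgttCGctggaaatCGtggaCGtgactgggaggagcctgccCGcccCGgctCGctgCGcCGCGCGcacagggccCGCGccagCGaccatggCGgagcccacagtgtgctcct
GNAI1: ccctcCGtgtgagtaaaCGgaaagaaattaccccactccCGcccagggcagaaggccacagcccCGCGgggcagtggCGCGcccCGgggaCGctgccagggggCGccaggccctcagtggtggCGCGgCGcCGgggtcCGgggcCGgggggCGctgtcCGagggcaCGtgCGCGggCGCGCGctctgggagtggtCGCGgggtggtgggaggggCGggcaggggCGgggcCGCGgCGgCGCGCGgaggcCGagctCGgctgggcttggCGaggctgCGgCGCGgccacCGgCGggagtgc
CD36: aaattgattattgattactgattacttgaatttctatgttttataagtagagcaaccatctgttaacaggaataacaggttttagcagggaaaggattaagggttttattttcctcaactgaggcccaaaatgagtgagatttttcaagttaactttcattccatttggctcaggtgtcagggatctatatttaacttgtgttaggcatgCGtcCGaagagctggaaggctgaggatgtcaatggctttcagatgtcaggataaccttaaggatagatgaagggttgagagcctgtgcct

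The CROT window shares 271 bases with that of TP53TG1 on the opposite strand, the starts of both genes lying 172 bases apart. CpG counts were 28 for CROT, 32 for RUNDC3B, 33 for ZC3HAV1L, 21 for PDK4 and 42 for GNAI1, against 1 for ABCB1 and 2 for CD36. Across the 35116 promoters of the table the median was 14, with quartiles of 4 and 28. By these listed starts, both the higher and the lower genes include a CpG-rich and a CpG-poor one. Which start was used in these libraries was not measured. GNAI1 and CD36 are annotated from 79768028 and 80369575, so their windows lie inside the annotated genes. The STAT-type letters TTCNNNGAA, which read the same on both strands, were in 7.66% of all promoters of this length and in none of the 7 windows shown, which says only that these letters are not in these windows. A promoter was matched for 546 of the 834 members (65.5%), which is too few for a comparison over the members, so that check is void. TWIST1 and ABCB4 are named without a sequence.

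Facts of the whole series can be given briefly. Values summed to between 46.7 M and 53.3 M in WT and between 43.5 M and 49.5 M in the KO-labelled libraries. Read depth is unknown. TNK2 read 830, 613 and 642 in WT and 741, 506 and 598 in the KO-labelled libraries, so its RNA level overlapped between the groups (log2 difference -0.18, SE 0.21, limma adjusted p = 0.681, or 0.207 with a replicate block). It does not check the labels. All 10 K562 markers examined, among them GATA1, TAL1, KLF1, LMO2, TFRC and HBG1, were at 100 or more in every library. Of 9 markers of other cell types, MS4A1 was not listed, EPCAM read 4344 to 5171 and CD3D 400 to 1708, and the remaining 6 stayed at or below 204. COL1A1, a fibroblast collagen, read 4.68 to 32.2 in WT and 74.6 to 204 in the KO-labelled libraries, and CDH1 was listed at 0 in 1 library. The summed level of the other-cell markers was 4887 to 6699 in WT and 5874 to 7061 in the KO-labelled libraries, and its part in the results was not tested.

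Chromosome 7 RNA stood higher in the KO-labelled libraries along nearly its whole length. The median log2(value + 1) difference, KO-labelled minus WT, was 0.39 (quartiles 0.16 and 0.71), a fold of 1.31, and 703 of 834 members (84.3%) lay above 0. Genes off chromosomes 5, 7 and 20, the 3 with medians farthest from 0, had a median of -0.03 (quartiles -0.28 and 0.29) with 46.8% above 0, and 48.4% of all genes tested lay above 0. The difference was used in choosing what to describe, so it is given as a description.

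**Figure D1:**
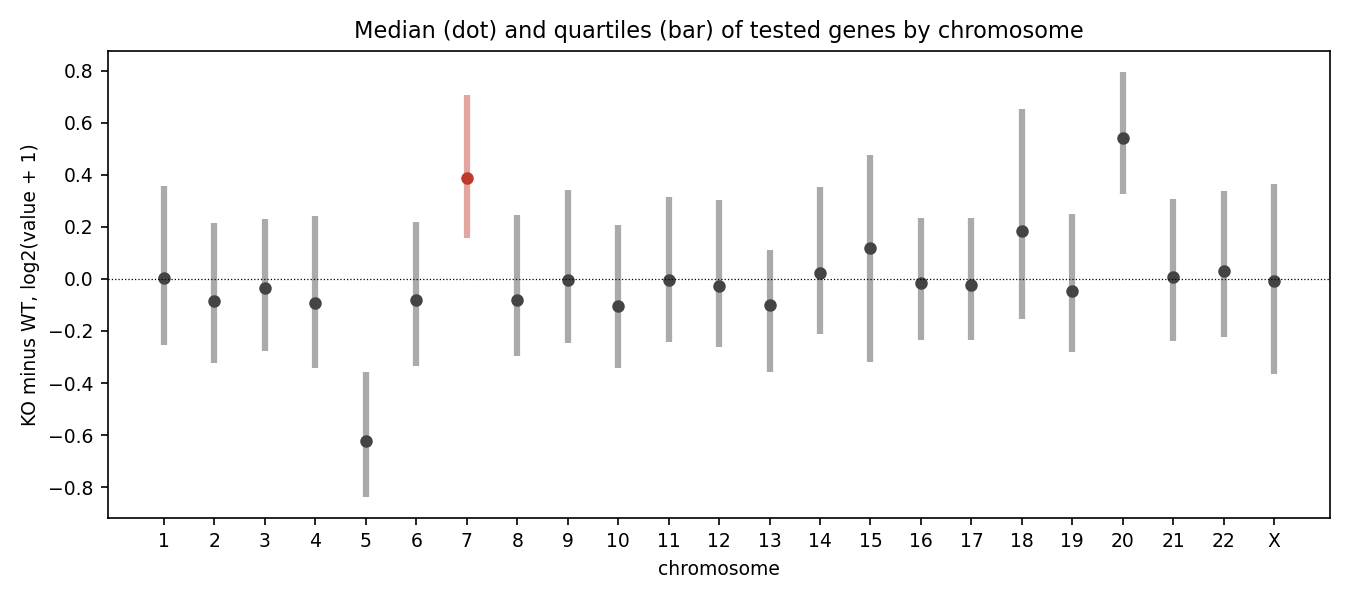
Median (dot) and quartiles (bar) of the KO-labelled minus WT difference in log2(value + 1) for the tested genes of each chromosome, chromosome 7 in red. Chromosome 7 sits at 0.39, between chromosome 20 at 0.54 and the rest, while chromosome 5 lies at -0.62.

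Levels in single libraries were set against the mean of the 6 libraries, so the WT and KO-labelled values mirror each other by construction. Relative to genes off chromosomes 5, 7 and 20, the median member stood at -0.22, -0.21 and -0.21 in the 3 WT libraries and at 0.24, 0.19 and 0.20 in the 3 KO-labelled ones. Shares of the summed values do not rest on that centring. All chromosome 7 genes, those below the filter included, made up 3.60%, 3.75% and 3.81% of all values in WT. In the KO-labelled libraries they made up 4.92%, 4.87% and 4.97%. Within the same-numbered pairs the median difference was 0.41, 0.37 and 0.38, and 582 members (69.8%) were higher in every pair, against 29.3% of genes off the 3 chromosomes. Only 66 (7.91%) were lower in every pair, against 34.2%.

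**Figure D2:**
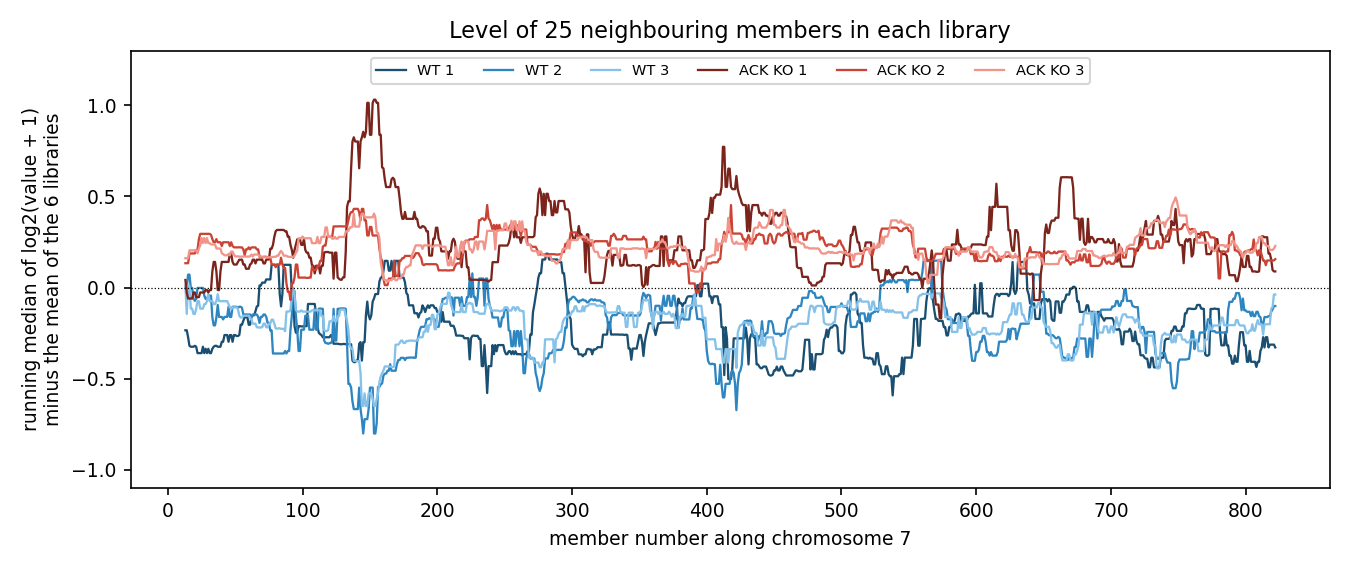
Running median over 25 neighbouring members of log2(value + 1) minus the mean of the 6 libraries, along the member order of chromosome 7, for each WT (blue) and ACK KO (red) library. The KO-labelled lines run above the WT lines over most of the chromosome.

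Limma called 135 members at an adjusted p under 0.05, which is 16.2% of them against 10.3% of all genes tested. Of these 114 were higher, against a background of 5.37%, and 21 were lower, against 4.96%. Among the 114, 71 differed by a log2 of 1 or more and 43 by less, the smallest difference being 0.42, which is above the median of all members. With the replicate number as a block, 478 members were called against a background of 39.7%; 443 were higher and 35 lower, against 19.7% and 20% of all genes. Over all genes tested, 30% had values that did not overlap between the groups. Among the members this held for 329 that were higher (39.4%, background 15.2%) and 36 that were lower (4.32%, background 14.7%). The filter itself requires a difference of 34 members that were under 10 in every library of one group: 24 passed only through the KO-labelled libraries and 10 only through WT. The remaining 800 members had a median difference of 0.38, with 97 called higher and 12 called lower.

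The chromosome was cut into segments where the level of the differences changed, with at least 10 members each. A segment counted as raised at a median of 0.2 or more above that of genes off chromosomes 5, 7 and 20. The division gave 3 segments, and all 834 members lay in raised ones; no unshifted segment was found under any setting tried. The first ran from FAM157D to CBX3, 0.02 to 26.2 Mb on GRCh38, with 140 members and a median of 0.33. The second ran from SNX10 to HOXA6, 26.3 to 27.2 Mb, with 10 members and a median of 2.12. The third ran from HOXA11-AS to LINC00689, 27.2 to 159 Mb, with 684 members and a median of 0.39. Cut in the same way, genes off chromosomes 5, 7 and 20 were not all unshifted. Raised segments there included 163 genes of chromosome 1 (median 0.48) and 286 of chromosome 15 (0.38). Lowered ones included 290 genes of chromosome 15 (-0.24).

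**Figure D3:**
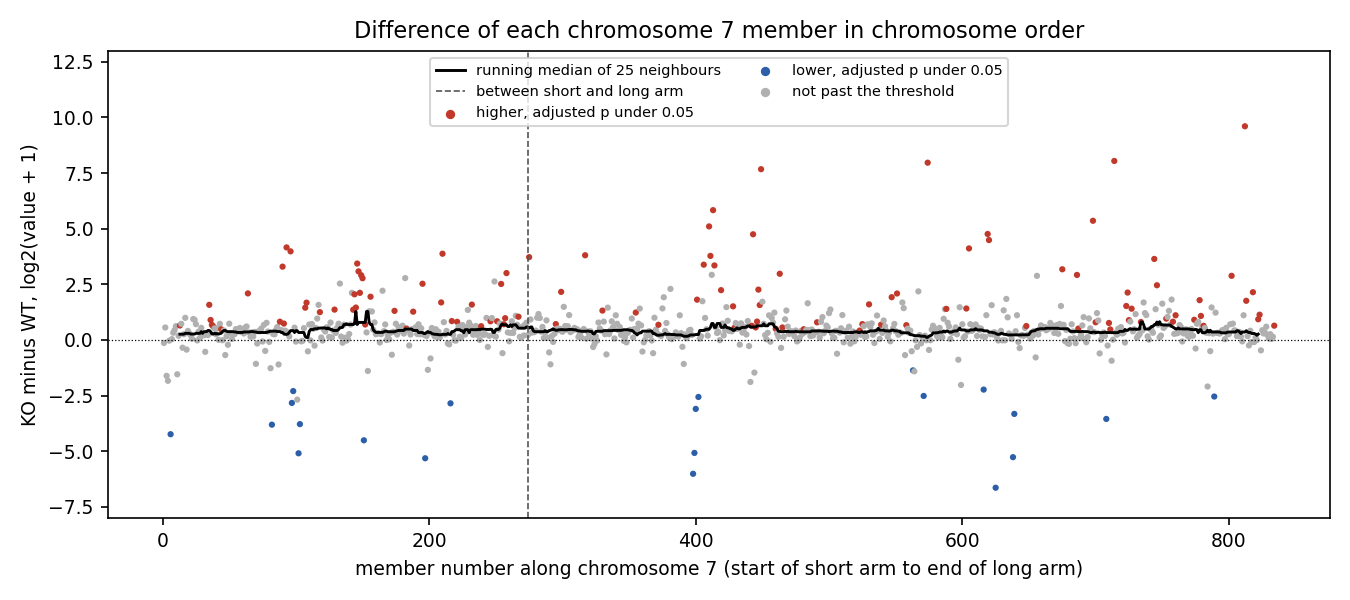
KO-labelled minus WT difference in log2(value + 1) of each of the 834 members in chromosome order, with a running median over 25 neighbours and the boundary between the arms. The running median stays above 0 throughout, 114 members past the limma threshold lie above 0 (red) and 21 lie below (blue).

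At the first boundary, CBX3, a heterochromatin protein, read 14107, 22191 and 21108 in WT and 15695, 28083 and 25925 in the KO-labelled libraries, a difference of 0.26 with overlapping groups. Its neighbour SNX10, a sorting nexin of endosomes, read 272, 206 and 240 against 477, 298 and 401, a difference of 0.69 without overlap. At the second boundary HOXA6 was higher and HOXA11-AS was lower, as described below. The boundaries depended on the setting: several alternatives, among them a pseudocount of 5 and the use of coding members alone, gave a single raised segment.

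Running windows of 25 members were raised in 796 of 810 positions (98.3%), against 10.5% of windows off chromosomes 5, 7 and 20, and all 810 were above 0. The lowest window, from TSPAN13 to SNHG26 at 16.8 to 22.9 Mb, had a median of 0.11. Within the same-numbered pairs its medians were 0.20, -0.02 and 0.50, so it was not above 0 in each pair. The highest, from GSDME to CHN2 around the HOXA cluster, had 1.28. The windows that were not raised centred on 3 short stretches, MACC1 to SP8, CCDC146 to RSBN1L and DNAJC2 to LINC01004. The members at these centres had medians of their own of 1.45 (3 members), 0.12 (4) and -0.01 (7). The first stretch was thus high itself, within low windows. With the penalty for a cut halved, the chromosome fell into 6 segments. These included 45 members from PMS2P2 to RPL7P30 (75.3 to 84.5 Mb) with a median of 0.20, and 10 members from ELAPOR2 to RUNDC3B (86.9 to 87.8 Mb) with a median of 3.14.

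In bins of 10 Mb the median ran from 0.26 at 10 to 20 Mb to 0.58 at 140 to 150 Mb. The 10 to 20 Mb bin was the most mixed, with 58.3% of its 24 members above 0, 5 called higher and 5 called lower. The arms were close to each other, with medians of 0.38 on the short arm (80.7% above 0) and 0.39 on the long arm (86.1%). Genes on the plus strand had a median of 0.41 and those on the minus strand 0.37.

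The members kept closer together at higher values, and so did genes off chromosomes 5, 7 and 20. They were divided into 3 tertiles by their mean log2 value. In the tertile with the highest values the median was 0.32, the interquartile range 0.29, and 92.4% lay above 0. The middle tertile had a median of 0.43 and a range of 0.50, and the lowest tertile 0.54 and 1.28, with 73.0% above 0. Genes off chromosomes 5, 7 and 20 within the same bounds had, from highest to lowest, medians of -0.08, 0.02 and 0.06. Their interquartile ranges were 0.33, 0.54 and 1.17, so they narrowed with abundance as well. Of the 278 members in the highest tertile, 28 were called higher and 0 lower. Over all members the shares were 13.7% and 2.52%, and over all genes tested 5.37% and 4.96%. With the block the counts in this tertile were 194 and 2, beside 53.1% and 4.20% of all members and 19.7% and 20% of all genes tested. The shares called among other genes of this abundance are not given here.

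**Figure D4:**
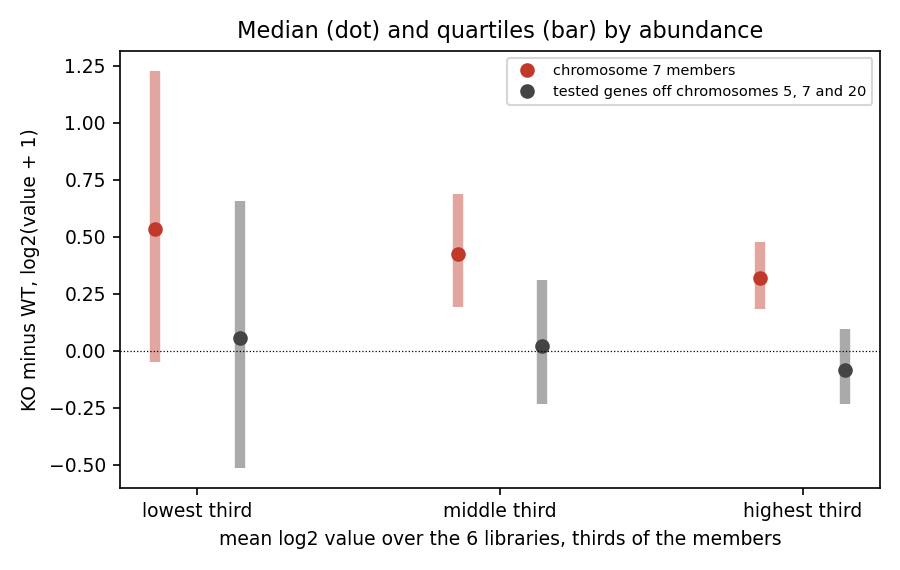
Median (dot) and quartiles (bar) of the KO-labelled minus WT difference in log2(value + 1) for genes within the tertile bounds of the members' mean log2 value, for chromosome 7 members (red) and tested genes off chromosomes 5, 7 and 20 (grey). The median of the members lies above that of the other genes in each tertile, and the bars of both narrow from the lowest to the highest tertile.

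By biotype the median was 0.39 for protein-coding members, 0.38 for long non-coding ones and 0.42 for pseudogenes. Long non-coding members spread more widely (interquartile range 0.79, against 0.50 for coding ones). Genes off chromosomes 5, 7 and 20 did so as well, with 0.81 for long non-coding and 0.51 for coding ones. The wider spread is therefore not particular to this chromosome. Of the 21 members called lower, 8 were long non-coding, out of 136 long non-coding members. The share called lower among other long non-coding genes is not given here. Of the 95 pseudogenes, 5 were called higher and 0 lower. Among all genes tested 5.37% were called higher and 4.96% lower, and among all members 13.7% and 2.52%. The 5 calls are therefore not read as a result about pseudogenes. Many copies of PMS2, GTF2I, POM121, NSUN5 and STAG3 lie on this chromosome, and reads may be split among such near-identical copies.

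The members with the highest values, not divided by gene length, kept close to 0 or to the chromosome median. ACTB, cytoplasmic actin, read 85483, 131929 and 138751 in WT and 83352, 105000 and 113133 in the KO-labelled libraries (difference -0.22). HNRNPA2B1, an RNA-binding splicing factor, had a difference of 0.04, PPIA, a prolyl isomerase, 0.25, CCT6A, a subunit of the chaperonin TRiC, 0.20, EIF3B, a translation initiation factor, 0.26, EIF4H, a helicase cofactor, -0.04, and CYCS, cytochrome c, -0.13. None of these 7 was called without the block, and EIF3B, CCT6A and PPIA were called higher with it (limma adjusted p = 0.0124, 0.0275 and 0.0253). FSCN1, an actin-bundling protein, stood apart with 13312, 20258 and 20212 against 21699, 33410 and 34237, groups that did not overlap (0.73, limma adjusted p = 0.129, or 0.00012 with the block). Within both groups, library 1 was the lowest for all 8.

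Of the 278 members in the highest tertile, 21 lay below 0. IKZF1, the lymphoid transcription factor Ikaros, was the farthest, with 4874, 5938 and 6073 in WT and 3027, 4318 and 3886 in the KO-labelled libraries. The groups did not overlap (-0.60, limma adjusted p = 0.0811, or 0.00083 with the block). MICALL2, an adaptor at cell junctions, followed at -0.44, and, named after their values were seen, MRPL32, PSMA2, DNAJC2 and XRCC2 lay between -0.20 and -0.07.

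Of 18 HOXA cluster genes listed, 8 were measured, with a median difference of 2.44, and limma called 7 higher and 1 lower. HOXA2, HOXA5, HOXA6 and HOXA11-AS were under 10 throughout one group and passed the filter only through the other, so a difference was required of them; the other 4 had a median of 2.08. HOXA3 read 46.6, 45.9 and 58.2 in WT and 445, 453 and 394 in the KO-labelled libraries (3.08, SE 0.22, limma adjusted p = 0.00044), so it was higher in every KO-labelled library than in any WT library.

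HOXA2 rose from 2.07, 5.08 and 3.64 to 32.7, 61.0 and 51.4, and HOXA5 from 5.76, 4.51 and 6.73 to 70.7, 34.7 and 46.5. HOXA6 rose from 4.78, 0.93 and 3.48 to 37.8, 16.3 and 22.8. These are low values, and the call of HOXA6 was kept in 1 of 6 fits that left out a library. The antisense transcripts HOTAIRM1 (274, 105 and 178 against 506, 428 and 489) and HOXA-AS2 (69.8, 28.9 and 49.5 against 264, 163 and 199) rose too. Their calls were kept in 1 and 3 of the 6 fits, with limma adjusted p up to 0.166 and 0.0788.

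HOXA11-AS, the measured gene nearest the 5′ end of the cluster, went the other way: it read 31.3, 17.4 and 19.1 in WT and was listed at 0 in all KO-labelled libraries. Among the measured genes the direction changed between HOXA6 and HOXA11-AS, both of which passed the filter through one group alone, with 10 of the 18 listed genes not measured. The kit keeps the strand, but no source used here says how strand was treated in counting, so reads of the antisense genes and of the HOXA genes they overlap are uncertain.

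**Figure D5:**
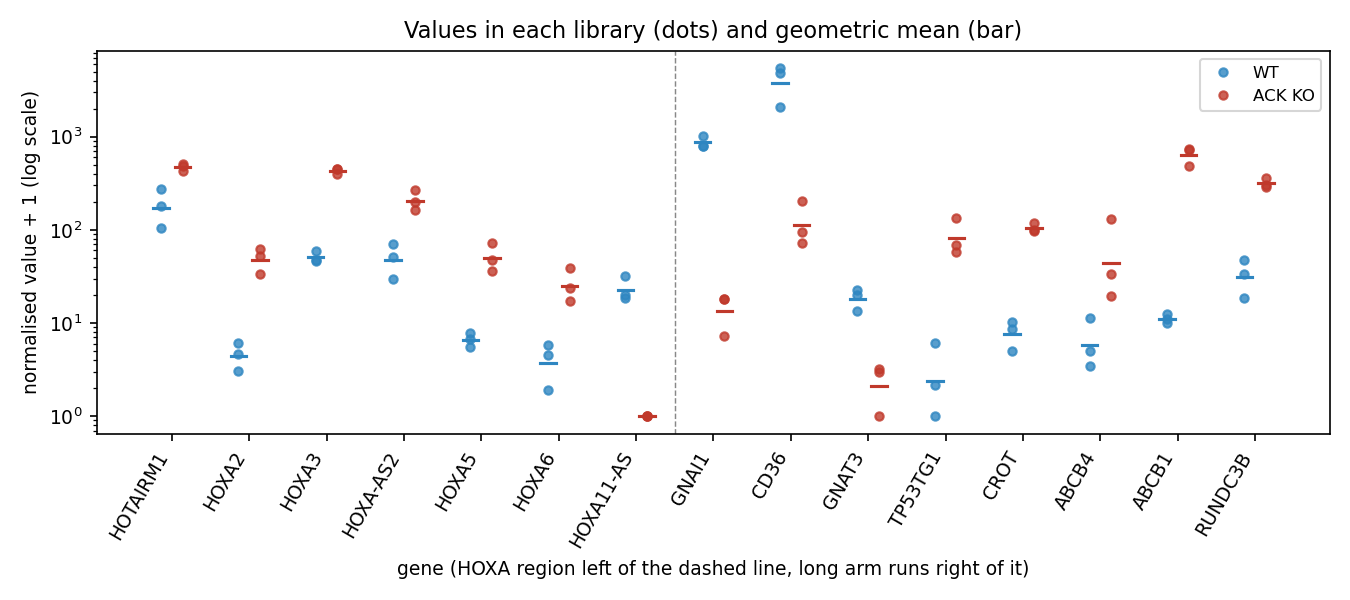
Normalised value plus 1 (log axis) in each WT (blue) and ACK KO (red) library, with geometric means as bars, for 7 of the measured HOXA cluster genes (left of the dashed line) and for 2 runs of neighbours on the long arm. The first 6 HOXA genes and the run from TP53TG1 to RUNDC3B were higher in the KO-labelled libraries, while HOXA11-AS and the run from GNAI1 to GNAT3 were lower.

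Runs of 3 or more neighbours that each stood off their segment median by a log2 of 1 or more were also listed, chosen after their values were seen. Chromosome 7 had 5 such runs, or 0.60 per 100 members, and the other chromosomes had 0 to 0.933 per 100 genes. Besides the HOXA run, they lie at 18.1 to 19.6 Mb (HDAC9, TWIST1 and ENSG00000223838, lower), 79.8 to 80.7 Mb (GNAI1, CD36 and GNAT3, lower), 87.3 to 87.8 Mb (TP53TG1 to RUNDC3B, higher) and 94.7 to 96.1 Mb (PEG10 to DYNC1I1, higher).

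The higher run at 87.3 to 87.8 Mb holds 5 genes. ABCB1, the drug efflux pump P-glycoprotein, read 11.4, 8.98 and 10.0 in WT and 731, 479 and 715 in the KO-labelled libraries (5.83, SE 0.28, limma adjusted p = 9.15e-05). TP53TG1, a long non-coding RNA, read 5.14, 0 and 1.15 against 133, 57.3 and 67.4. CROT, a peroxisomal carnitine acyltransferase whose promoter window it shares, read 3.98, 7.53 and 9.36 against 117, 96.5 and 97.5. Both TP53TG1 and CROT passed the filter only through the KO-labelled libraries, so a difference was required of them.

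RUNDC3B, which lies across from ABCB1 on the other strand, rose from 32.9, 46.4 and 17.4 to 302, 287 and 356. ABCB4, a phospholipid transporter, read 10.3, 2.44 and 4.03 against 131, 32.2 and 18.5, without overlap, and missed the threshold (limma adjusted p = 0.0691, or 0.0021 with the block). The next member, SLC25A40, a mitochondrial carrier, was back near the level of the chromosome at 0.56. RUNDC3B overlaps ABCB1, which leaves their split of reads uncertain in the same way as for the antisense genes.

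In the run at 94.7 to 96.1 Mb, PDK4, which inhibits the pyruvate dehydrogenase complex, was listed at 0 in all WT libraries and read 388, 102 and 211 in the KO-labelled ones. PON2, a lactonase with antioxidant activity, read 270, 309 and 340 against 862, 832 and 1040. PEG10, an imprinted gene of retrotransposon origin, read 40.3, 18.7 and 13.6 against 104, 142 and 85.7.

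Other members stood far above their segment. ZC3HAV1L, a relative of the zinc-finger antiviral protein, was listed at 0 in WT and read 219, 311 and 267. LHFPL3-AS2, an antisense RNA, was listed at 0 and read 233, 237 and 280. CAV2, a caveolin, rose from 21.1, 22.3 and 30.4 to 833, 566 and 682 (4.76, SE 0.27). Its neighbour MET, the hepatocyte growth factor receptor, rose from 106, 14.3 and 22.3 to 1373, 449 and 695 (4.49, SE 0.77), with the call kept in 4 of 6 leave-one-out fits. LINC01287, named after its values were seen, went from 2.35, 2.19 and 0 to 2434, 1414 and 1463.

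In all, 6 members were under 10 in every WT library and at 100 or more on average in the KO-labelled ones, against 0.234% of all genes tested. These were SOSTDC1, CROT, PDK4, LHFPL3-AS2, ZC3HAV1L and LINC01287. All of them passed the filter only through the KO-labelled libraries, so a difference was required of them. The reverse held for 2, CTTNBP2 and ENSG00000242593, against 0.294%, and both passed the filter only through WT.

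The 21 members called lower, all against the chromosome, had differences from -6.65 to -1.37, so none was a small departure. Of these, 9 were under 10 in every KO-labelled library and passed the filter only through WT, among them CTTNBP2, GNAT3, HOXA11-AS and GPR37. The 21 comprised 13 coding and 8 long non-coding genes, 9 on the short arm and 12 on the long arm. The call was kept by 15 of them in all 6 leave-one-out fits. With the block, 32 members went against their segment.

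GNAI1, an inhibitory G protein alpha subunit, fell from 798, 800 and 1018 to 16.9, 6.33 and 17.1 (-6.02, SE 0.40, limma adjusted p = 0.00033). Its neighbour CD36, a fatty acid scavenger receptor found on erythroid and megakaryocytic cells, fell from 2070, 5433 and 4837 to 71.0, 93.6 and 205 (-5.08, SE 0.50). GNAT3, a taste-cell G protein subunit that overlaps CD36, was low in WT as well, at 12.4, 21.8 and 19.0, and read 0, 2.24 and 1.98 in the KO-labelled libraries. In each of the 3 genes, every KO-labelled value was below every WT value.

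On the short arm, TWIST1, a basic helix-loop-helix transcription factor, fell from 806, 690 and 761 to 19.5, 18.3 and 25.7 (-5.10, SE 0.24). HDAC9, a class II histone deacetylase beside it, read 148, 51.7 and 62.2 against 14.5, 3.79 and 24.0, without overlap, and missed the threshold (limma adjusted p = 0.0596, or 0.0038 with the block). AHR, the ligand-activated aryl hydrocarbon receptor, fell from 2168, 1881 and 2305 to 329, 250 and 312 (-2.83, SE 0.17).

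ELMO1, which acts with DOCK proteins to activate Rac, fell from 189, 319 and 280 to 0.96, 9.67 and 11.8. On the long arm, CTTNBP2, a cortactin-binding protein, fell from 286, 185 and 152 to 0, 7.16 and 0. NOS3, the endothelial nitric oxide synthase, fell from 1386, 1299 and 1146 to 278, 170 and 216 (-2.55, SE 0.22). None of these groups overlapped.

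FBXL13, an F-box protein, had the smallest fall of the 21, from 864, 782 and 868 to 329, 278 and 369 (-1.37, SE 0.17). RELN, an extracellular glycoprotein, fell from 713, 518 and 417 to 191, 53.7 and 77.0, with the call kept in 2 of 6 leave-one-out fits. The long non-coding ENSG00000232053 fell from 2116, 921 and 832 to 115, 81.6 and 104. GPR85, GPR37, PCLO, MGC4859 and PRKAR1B-AS1 were also among those called lower.

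Gene lists chosen for this chromosome are described by their counts and medians, beside 0.39 over all members. Limma called 13.7% of all members higher and 2.52% lower, or 53.1% and 4.20% with the block, and the shares over all genes tested are those given above. A list count with the block near 53.1% is the level of the chromosome. All 4 measured imprinted genes were called higher (median 1.62), with 9 listed genes not measured. MEST, a hydrolase-fold protein expressed from the paternal allele, read 283, 496 and 504 in WT and 3141, 3441 and 2858 in the KO-labelled libraries (2.92, SE 0.25). GRB10, an adaptor of growth factor receptors, rose from 7621, 5228 and 5246 to 14288, 10380 and 10733 (0.98). COPG2, a coatomer subunit whose 3′ end meets that of MEST, rose by 0.51, a call that was lost after centring (limma adjusted p = 0.052) and after quantile normalization (0.0514). Except for MEST, these calls, PEG10 included, were kept in 1 of 6 leave-one-out fits.

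Of 18 protein kinase and kinase-complex genes measured, 7 were called higher and 0 lower (median 0.57; 11 higher with the block). PDK4, among the 7, passed the filter only through the KO-labelled libraries. HIPK2, a stress-responsive nuclear kinase, rose from 3906, 3625 and 2994 to 9300, 9873 and 10980. EPHB4 and EPHB6, receptors for ephrins, rose by 0.71 and 2.46, STK17A by 0.85 and TRRAP, a scaffold of histone acetyltransferase complexes, by 0.56. The call of TRRAP was kept in 1 of 6 leave-one-out fits, with limma adjusted p up to 0.156, and was lost after centring on genes off chromosomes 5, 7 and 20 (0.0547). CDK6, a cyclin D partner, read 14232, 17436 and 17178 against 20458, 25528 and 27257, without overlap (0.58, limma adjusted p = 0.0684, or 0.0004 with the block). EIF2AK1, the haem-regulated kinase, had a difference of 0.46 and PRKAR2B, a regulatory subunit of protein kinase A, 0.05.

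Of 18 genes of the actin cytoskeleton and its regulators, limma called 2 higher and 1 lower (median 0.54). With the block, 13 were higher and 1 lower. BAIAP2L1, a membrane-bending adaptor, rose from 612, 227 and 347 to 3631, 2442 and 2650, beside CAV2 and the fall of ELMO1. RAC1, a small GTPase that acts on actin, read 11164, 13638 and 12652 against 14592, 17039 and 16286 (0.36, limma adjusted p = 0.154, or 0.0025 with the block), and FLNC, a filamin, had a difference of 0.60.

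Of 12 iron and blood genes, 3 were called higher and 1 lower (median 0.32; 7 and 3 with the block). Besides ABCB1 and CD36, ACHE, acetylcholinesterase, rose from 259, 278 and 231 to 710, 762 and 860. STEAP1 rose by 2.24 from values under 10 and passed the filter only through the KO-labelled libraries. TFR2, the second transferrin receptor, had a difference of 0.33, GNB2 of 0.31 and TRIP6 of 0.13, none called without the block.

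The 7q myeloid disease genes were all measured, 8 in number, with a median of 0.38 and a range from -0.28 for SAMD9L to 0.85 for SAMD9, paralogous growth regulators; none was called without the block and 6 were higher with it. KMT2C, a histone H3 lysine methyltransferase, read 9898, 9888 and 9020 in WT and 13409, 11808 and 11641 in the KO-labelled libraries (0.35). EZH2, the catalytic subunit of Polycomb complex 2, read 5028, 6735 and 6662 against 7276, 7674 and 7859 (0.32). Neither pair of groups overlapped, and KMT2E differed by 0.46 and LUC7L2, a splicing factor with a read-through neighbour, by 0.29.

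The Williams region had 18 of 25 genes measured and a median of 0.37, with none called without the block and 12 higher with it. BAZ1B, a chromatin remodeller subunit, read 14586, 15959 and 15143 against 17352, 19304 and 18099 (0.26). GTF2I, a transcription factor with pseudogene copies nearby that may take part of its reads, had a difference of 0.43, and BUD23, a ribosomal RNA methyltransferase, 0.44.

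Of 15 replication and chromosome maintenance genes, none was called without the block and 10 were higher with it (median 0.26). MCM7, a subunit of the replicative helicase, read 15516, 19584 and 18578 against 20011, 24818 and 22806 (0.33), NCAPG2 of condensin II differed by 0.26 and the nucleoporin NUP205 by 0.23. Of 35 zinc finger genes, 3 were called higher (ZNF655, ZNF713 and ZNF853) and 19 were higher with the block (median 0.33). ZNF655 read 6601, 6656 and 6440 against 9173, 9258 and 9028 (0.48, SE 0.10), without overlap. Its call was kept in 1 of 6 leave-one-out fits, with limma adjusted p up to 0.143.

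The smallest list medians were those of the mitochondrial list and of proteasome and chaperone genes. The mitochondrial list of 17 measured genes also holds POLR2J, a subunit of RNA polymerase II (0.39). Of the 17, 1 (MRPS33, a mitochondrial ribosomal protein, 0.80) was called higher and 7 were with the block (median 0.17). CHCHD2 differed by 0.21, NDUFA5 of complex I by 0.29 and MDH2, malate dehydrogenase, by 0.17. Of 11 proteasome and chaperone genes, none was called without the block and 4 were higher with it (median 0.10). PSMA2 and PSMC2, proteasome subunits, had differences of -0.16 and 0.10, while PDIA4, a disulfide isomerase of the endoplasmic reticulum, had 0.67. Whether these lists differ from the other members was not tested.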

How the data were processed

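RNA-seq values of 6 K562 libraries, 3 labelled WT and 3 labelled ACK KO, were used. The values are a signal, gene-level counts that the authors normalised before depositing them; they are not whole numbers, and no common step held more than 23.0% of the low values in any library (tolerance 0.01), so reads were not recovered. The submitters' processing notes name the GRCh38 build, STAR 2.7.2b, Salmon 1.1.0, FastQC 0.11.7, R 3.6.1, DESeq2 1.26.0 and SAMtools, without roles. No source used here gives the annotation or how reads were counted.

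Genes were placed with GENCODE 29 (19112 of 19498 identifiers) and named from a name table (19392). Log2(value + 1) was tested with limma 3.58.1 (R 4.3.3, intensity trend) over all 16658 genes that reached 10 in 3 or more libraries, adjusted by Benjamini-Hochberg at 0.05. No count model was used. Chromosome 7 was divided into segments by optimal partitioning with absolute deviations, a penalty of 5.11 and at least 10 members each. Tests and segmentation were also run on simulated data, with outcomes not given here. The noise simulated for limma was independent between libraries, so it does not cover deviations shared by same-numbered libraries. Deviations of same-numbered libraries from their group means correlated at 0.699, 0.521 and 0.342 across genes, so a second fit took the replicate number as a block. WT 2 with ACK KO 3 gave 0.281 and WT 3 with ACK KO 2 gave 0.257. Number 1 against number 2 or 3 gave -0.594 to -0.418. Numbers 2 and 3 are therefore less clearly matched than number 1. The labels do not say what a number stands for.

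The members, lists and alternatives were chosen with earlier results of these data known. Named are TNK2, the 8 members with the highest values, those beside a segment boundary, the 6 called members farthest above and the 6 farthest below their segment, up to 8 called against it, up to 4 of each list by mean (all HOXA and imprinted ones) and 2 on each side of the filter. Some genes that these rules take are not reported here. Others were named after their values were seen.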

Additional observations from a re-analysis of the deposited data

How the results depend on the processing

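The count of calls depended most on the pairing. With the replicate block 443 members were called higher, 35 lower and 32 against their segment, and with both number 1 libraries left out, an alternative chosen after seeing the data, 324 were called higher. Leaving out 1 library gave 38 (without ACK KO 3) to 157 (without WT 1) called higher, with 46 without WT 3, 57 without ACK KO 2, 58 without WT 2 and 66 without ACK KO 1, and 16 to 21 called lower or against. A floor of 50 and coding members alone each left 13 called lower, where fewer genes are tested. The chromosome median ranged from 0.38 to 0.42 with 1 library left out, was 0.35 after centring on genes off chromosomes 5, 7 and 20, and 0.37 for number 2 alone. The share of members above 0 was 81.4% without a filter, 87.9% with a floor of 50, 83.1% after centring, 87.8% for coding members, 81.8%, 82.4% and 82.5% for numbers 1, 2 and 3 alone, and 79.98% to 85.3% with 1 library left out. The number of segments was 6 with the penalty halved and 1 with it doubled, with at least 20 members, with a pseudocount of 5, with a floor of 50, for coding members and for number 1 alone; it ran from 1 to 3 with 1 library left out (1 without WT 2 or ACK KO 1). The cause was not tested. Every member lay in a raised segment under all of these.

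With the block, 40 of 68 named genes kept their side of the threshold and 28 moved past it. The sign turned for 10 genes near 0. EIF4H was 0.089 after quantile normalization and 0.015 with both number 1 libraries left out. With 1 library left out, the extremes were -0.602 and 0.267 for CYCS, -0.124 and 0.068 for EIF4H, -0.032 and 0.513 for EIF3B, -0.058 and 0.449 for CCT6A, -0.100 and 0.527 for PPIA, -0.294 and 0.362 for HNRNPA2B1, -0.029 and 0.135 for PRKAR2B, -0.074 and 0.375 for MDH2, -0.398 and 0.0034 for PSMA2, and -0.209 and 0.346 for PSMC2. Depth is unknown, so the spread between libraries alone limits the values.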
